A study of Arabidopsis thaliana with 8 samples.

Results

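The plastid genome of Arabidopsis was followed here through its own transcripts, read from the pair counts of embryo cotyledon libraries. Members were all gene models whose identifier starts with ATCG and that held at least 10 read pairs summed over the 8 libraries. There were 104 members among 133 plastid models, beside 20007 of 33602 models of the whole annotation that met the same minimum. Of the 29 plastid models left out, 26 held no pair in any library.

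To compare gene expression in 2 tissues, the study cut epidermis and mesophyll out of embryo cotyledons in paraffin sections of seeds by laser microdissection. All plants were wild type, of the Col-0 accession. Plants were grown in a greenhouse without any treatment, and the stage is named torpedo in one place and linear in another by the study. Each tissue had 4 libraries. Per the study's methods, a replicate pooled sections from siliques of 1 plant and the replicates came from different harvest dates, but the labels do not say which number stands for which plant or date, so p-values measure the spread between these libraries. Per the methods the RNA integrity number was slightly lower for epidermis. Libraries held between 27676412 and 36685627 counted pairs. All 6 epidermis markers (PDF1, ATML1, PDF2, FDH, DCR and LTPG1) were higher in epidermis, with a median log2 fold change of 3.11, and their summed level was 3370 to 6069 CPM (pairs scaled to a common library size) in epidermis and 249 to 704 CPM in mesophyll. Endosperm markers summed to 151 to 236 CPM in epidermis and 18.9 to 73.4 CPM in mesophyll (1 of 12, PHE1, at 0 in every library, and 1 of 6 tested, SUC5, called higher in epidermis), and seed coat markers to 9.51 to 37.9 CPM and 7.72 to 18.1 CPM (1 of 9, TT16, at 0 in every library). SUC5 was the highest of the 6 tested endosperm markers, with means of 145 CPM in epidermis and 44.7 CPM in mesophyll. ZOU, MYB118 and EPR1 had means of 12.1, 23.9 and 24.1 CPM in epidermis and 0.358, 0.729 and 0.764 CPM in mesophyll. AGL62 and AGL80 differed less, at 2.83 and 4.24 CPM against 2.17 and 2.70 CPM. No marker that mesophyll has and epidermis lacks was used, so the mesophyll label was checked only by the low epidermis markers. The part of endosperm RNA in the differences given here was not tested.

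Plastids keep a small circular genome of cyanobacterial origin that encodes core subunits of the photosynthetic complexes, part of the plastid ribosome, the core of a bacterial-type RNA polymerase, and the ribosomal and transfer RNAs. The other subunits of these complexes are encoded in the nucleus and imported, and a phage-type polymerase, also encoded in the nucleus, transcribes part of the plastid genes. Most plastid genes are transcribed together with their neighbours and cut afterwards, and plastid mRNAs carry no stable poly(A) tail, short A-rich tails being added to RNA that is being degraded. These libraries are described as made from poly(A) RNA, with a kit that starts the cDNA on runs of A. The study's methods put total RNA into that kit and name no separate selection step. The values below are thus what this priming recovered of plastid RNA, not its total amount.

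The deposited files give identifiers but no names, and the reference annotation used here gives names under other identifiers. A name was therefore given only where the length of a model equalled the coding or exon length of annotated genes. This gave 1 symbol for 71 members, of which 62 fell on 1 locus, and those 62 followed the order of coordinates with 0 steps against it. For 30 members the length fitted several symbols, as for the pairs written here "petD or rpl22" or "psbA or psbD", and for most models of transfer RNA length, which are called by their identifier. The order of identifiers separates these 2 pairs. ATCG00810 lies between rps3 and rps19, where rpl22, which overlaps rps3, is annotated, so it is rpl22 by order and ATCG00730 is petD. ATCG00270 precedes psbC, which overlaps psbD, so it is psbD by order and ATCG00020 is psbA. Labels and classes were kept as given by length. A further 3 members, ATCG00040, ATCG00360 and ATCG01050, matched no annotated length and stay unnamed. The annotated protein genes with no model of their length were matK, ndhB, ndhD and ycf3, so the NDH class holds neither ndhB nor ndhD. Which of these names belongs to which of the 3 members was not settled by length. By order of identifiers, ATCG00040 comes directly before rps16, ATCG00360 between psaA and trnS (ATCG00370), and ATCG01050 directly after ccsA. These places were not compared with the annotated places of the 4 genes, so an unnamed member can still be an NDH gene. By function there were 15 members of photosystem II, 3 of photosystem I, 4 of the cytochrome b6f complex, 4 of ATP synthase, 8 of the NDH complex (the chloroplast NADH dehydrogenase-like complex), 1 for Rubisco, 22 ribosomal protein genes, 4 polymerase genes, 7 other protein genes, 21 RNA genes of transfer RNA length, and 12 whose candidates belong to more than 1 class.

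Because the cDNA was primed on runs of A, internal A-rich stretches of the members are shown first. The 30 bases around the longest A run are given for the 7 protein-coding members with 1 locus whose run reaches 10 A, and for rpl32 and atpE, the members with the highest level per length (RefSeq, TAIR10.1, plastid chromosome Pltd). Bases are in the sense of the transcript and capitals mark the run of A.
rpoA (Pltd:78087-78116, minus strand): aacctaagAAAAAAAAAAAAAAcaaaagaa
ycf1 (Pltd:125859-125888, minus strand): aaatggagAAAAAAAAAAAAAtactcttta
rpoC2 (Pltd:17917-17946, minus strand): gagtagagAAAAAAAAAAAAAggattgaac
accD (Pltd:57364-57393, plus strand): tttttgatAAAAAAAAAAAAAtttttgaga
rpoB (Pltd:25674-25703, minus strand): cgataaggagAAAAAAAAAAtaggatcaaa
ycf1, shorter model ATCG01000 (Pltd:110405-110434, plus strand): ttttcaaaatAAAAAAAAAAgaggatcatt
atpB (Pltd:54091-54120, minus strand): tcgatacgtgAAAAAAAAAAcctgggacgt
rpl32 (Pltd:113449-113478, plus strand): atggcagttccAAAAAAAcgtacttctatc
atpE (Pltd:52591-52620, minus strand): gggattcagaagtAAAAgaaatcattttat

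The longest run was 14 A in rpoA, 13 in the full-length ycf1, rpoC2 and accD, 10 in atpB, rpoB and the shorter ycf1 model, 7 in rpl32 and 4 in atpE. Over the 57 protein-coding members with 1 locus, the run ranged from 2 to 14 with a median of 6. Against the level per kb, Spearman's rho across these 57 members was -0.06 for the longest A run, -0.11 for the most A in any 30 bases and 0.22 for the percentage of A. Over the 38 of them with at least 300 bases it was 0.01, -0.09 and 0.38. Against the log2 fold change of epidermis over mesophyll, rho was 0.04, 0.03 and -0.10 over the 57, and 0.36, 0.42 and 0.06 over the 38, so it differed with the length minimum. These are descriptions over genes that share libraries and, in part, transcripts. The members with long runs were spread over the range of levels: per kb of model, rpoA stood at 508 CPM and accD at 65.9 CPM, with runs of 14 and 13, rpoB at 17.1 CPM and the shorter ycf1 model at 1.69 CPM with runs of 10, while atpE with a run of 4 stood at 2283 CPM.

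Plastid models took a small share of all counted pairs, and a smaller one in epidermis than in mesophyll. The share was 0.399, 0.904, 1.27 and 1.17% in epidermis replicates 1 to 4 and 1.41, 1.49, 1.65 and 1.60% in mesophyll replicates 1 to 4. Every epidermis library was thus below every mesophyll library. The mean was 0.936% ± 0.390 in epidermis and 1.54% ± 0.108 in mesophyll (SD, n = 4 each), a ratio of 1.64. Without epidermis replicate 1 the epidermis mean was 1.11% ± 0.190 (SD, n = 3) and the ratio 1.38. A sum over the members was given no test. In whole tissue sections, fewer plastids or plastid-rich cells and less plastid RNA per cell cannot be told apart.

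**Figure D1:**
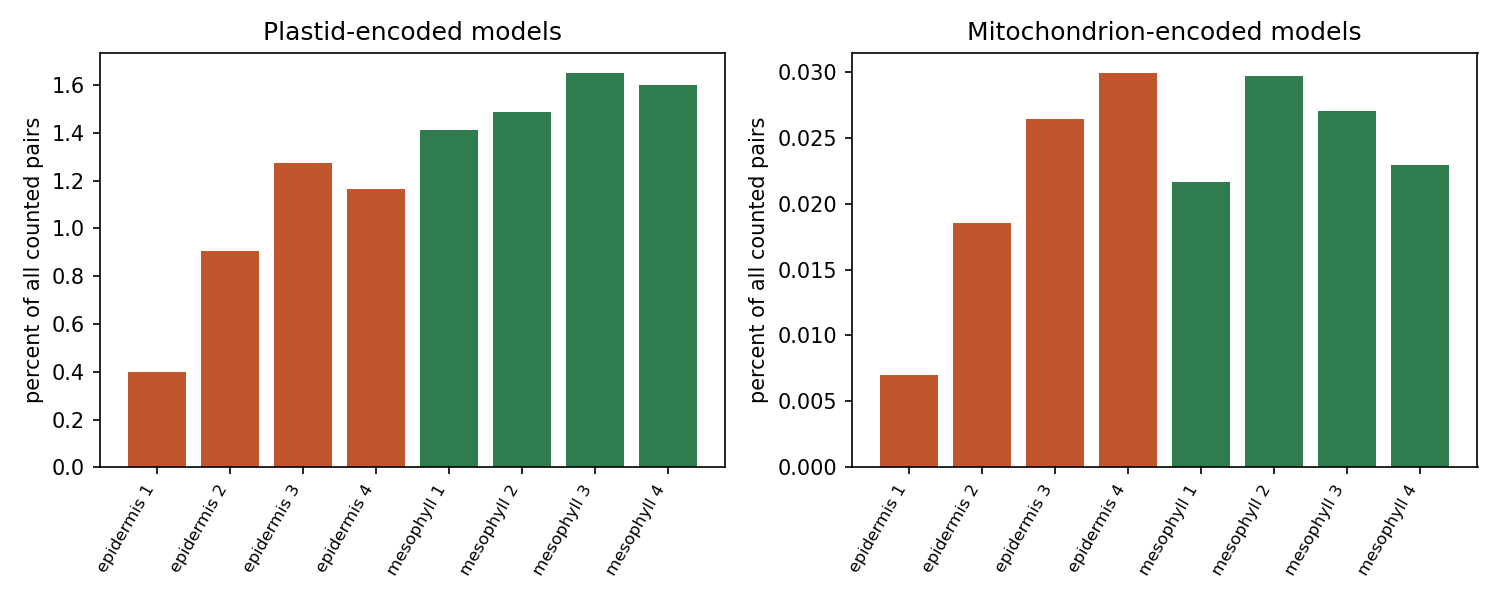
Percentage of all counted read pairs that fell in plastid models (left) and mitochondrial models (right), 1 bar per library. The 4 epidermis libraries lie between 0.399 and 1.27% and the 4 mesophyll libraries between 1.41 and 1.65% for plastid models, and epidermis replicate 1 is the lowest library in both panels.

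Mitochondrion-encoded models, the other organelle genome, took 0.00697% in epidermis replicate 1 and 0.0186 to 0.0299% in the other 3 epidermis libraries, against 0.0216 to 0.0297% in mesophyll. Outside epidermis replicate 1 the tissues overlapped for this share.

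The plastid pairs were held by few genes. Over all libraries 3009453 pairs fell in plastid models, of which ycf1 (ATCG01130) held 17.2%, the first 5 models 48.0% and the first 10 models 67.1%. The full-length ycf1 gene encodes a large protein of the plastid inner envelope, and with psaB, a reaction centre subunit of photosystem I, it was 1 of 2 members above a mean of 1000 CPM. Another 20 members lay between 100 and 1000 CPM, and 10 members stayed under 1 CPM. A pair was found in every library for 98 members.

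Long models collect more pairs, so genes were ranked per kb of model. The highest level per length was that of rpl32, a protein of the large ribosomal subunit, at 2242 ± 520.0 CPM per kb in epidermis and 2850 ± 265 in mesophyll (SD, n = 4 each). Second came atpE, the epsilon subunit of ATP synthase, at 1610 ± 1047 and 2955 ± 348 CPM per kb, so that rpl32 and atpE did not differ in mesophyll beyond their spread. The small-subunit protein gene rps3 followed with 853 ± 188 and 1355 ± 89.1 CPM per kb. The model ATCG00030, of transfer RNA length, ranked next at 642 ± 76.5 and 1208 ± 240 CPM per kb, and a model of 72 bases is shorter than a read, so its level per length is not on the footing of longer genes. Next in order were rps19, psbM (a small photosystem II subunit), atpB, psaB, the petD or rpl22 model ATCG00810, rpl16 and ATCG00390, and most neighbours in this order lay within each other's SD. The large subunit of Rubisco, rbcL, was at 70.9 ± 25.02 and 102 ± 15.6 CPM per kb, and both psbA or psbD models were lower still over the 8 libraries, at 23.4 and 22.4 CPM per kb.

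**Figure D2:**
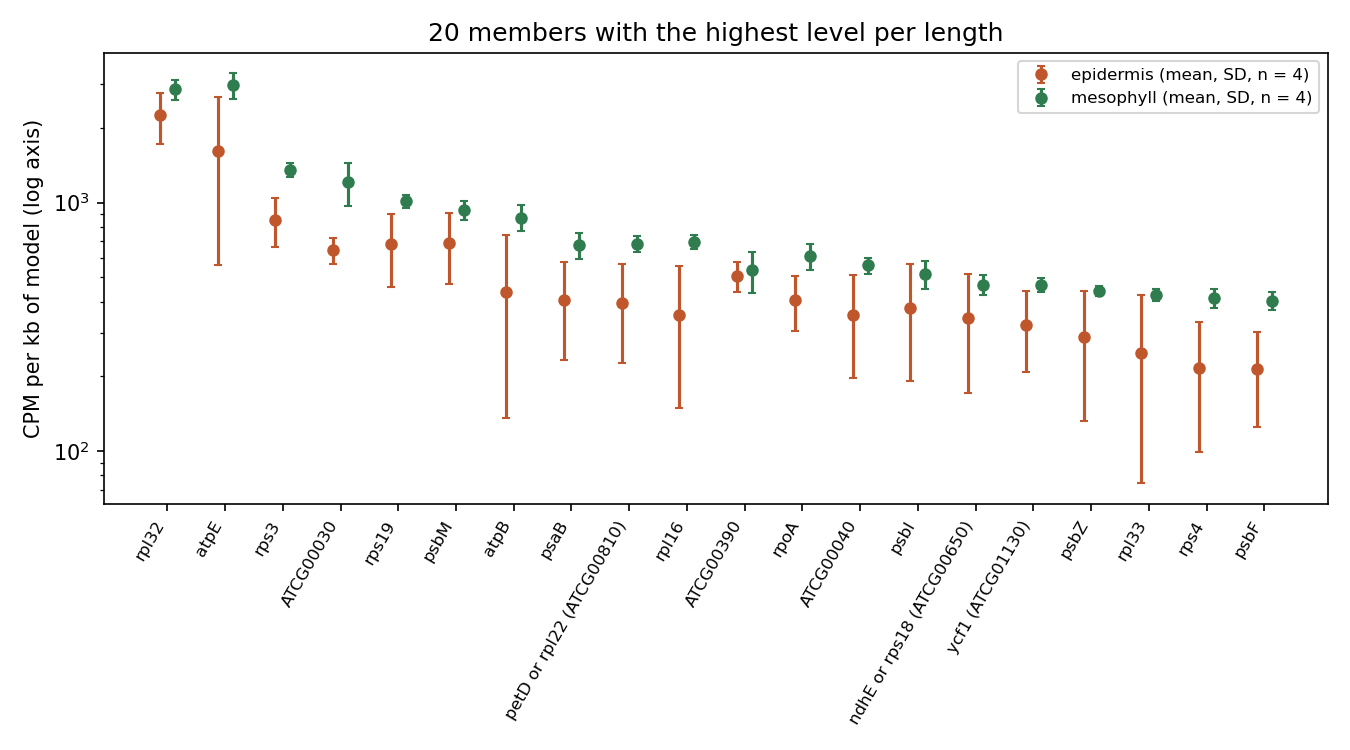
Level per length (CPM per kb of model, log axis) of the 20 members with the highest values, as mean and SD of 4 libraries per tissue. rpl32 and atpE stand above the rest, and the mesophyll mean is the higher one for each of the 20 genes.

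Some neighbouring genes on 1 strand were recovered very unequally per length and others alike. The 2 large reaction centre genes of photosystem I, psaA and psaB, lie 25 bases apart on the minus strand, psaA first. Yet psaB stood at 20.02 ± 1.78 times psaA per kb (SD, n = 8 libraries), with a range of 17.7 to 22.4 that held the library that stands apart (below). Among the polymerase genes, rpoB, rpoC1 and rpoC2 follow each other and encode the beta, beta' and beta'' subunits. Per kb, rpoC1 was 4.79 ± 1.52 times and rpoC2 6.29 ± 1.70 times rpoB, and rpoA, the alpha subunit in another cluster, 32.0 ± 8.53 times rpoB. For atpB and atpE, whose reading frames overlap, atpE was 3.30 to 3.83 times atpB per kb in 7 libraries and 9.61 times in epidermis replicate 1. The downstream gene was not always the higher one: rps14, just downstream of psaB, stood at 15.6 CPM per kb against 539 for psaB. Other neighbours were near equal. In the run psbE, psbF, psbL and psbJ, which encodes small subunits of photosystem II, each gene stood at 1.08 ± 0.0906, 1.03 ± 0.360 and 0.999 ± 0.105 times the gene before it (SD, n = 8). For petB after psbH the ratio was 1.06 ± 0.207, and for petA after cemA 0.939 ± 0.198.

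Genes of the inverted repeat have identical copies, and the authors removed pairs with an equally good second match, so their counts stand for what escaped that filter. The copies of rpl2 held 836 and 780 pairs over the 8 libraries, those of rpl23 480 and 457, those of rps7 42 and 35, and those of ycf2, the longest plastid gene, 14 and 7. The 2 models of the 3' part of rps12 differed, with 9771 pairs on ATCG01230 and 1047 on ATCG00905, a ratio of 9.33. Low values of these genes are thus no measure of their RNA. The counts use no strand, so RNA of psbN cannot be told apart from RNA of the psbB cluster that runs across it on the other strand. At the minimum of 10 pairs, the members just inside were ycf2 (ATCG00860) with 14 pairs and ATCG00060 with 28, and the models just outside were ycf2 (ATCG01280) with 7 pairs and ATCG00930 with 2.

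Tissues were then compared gene by gene with edgeR's quasi-likelihood test over all genes tested. Of the 104 members, 95 passed the minimum of 1 CPM in 4 libraries and 9 did not. No member was called at an adjusted p of 0.05, where 1.08% of the 15794 genes tested were called in either direction and 0.101% as lower in epidermis. At an unadjusted p under 0.05, 41 of the 95 tested members were lower in epidermis and 0 higher, beside 5.43% of all genes tested that were lower. The estimate was negative, meaning a lower level in epidermis, for 92 of 95 members and for 53.1% of all genes tested. The median log2 fold change was -0.83 over the members and -0.04 over all genes. Of 27 mitochondrion-encoded models tested, 23 also had negative estimates, with a median of -0.57 and 0 called. In fits without the replicate number the mitochondrial median was -0.30 with all libraries and 0.02 without epidermis replicate 1. The ranges of the tissues did not overlap for 43 of 95 members, all lower in epidermis, beside 4.51% of all genes tested that were apart in this direction. The 9 members not tested also had the lower mean in epidermis. Members share transcripts and the same 8 libraries, and some are copies of 1 gene, so these counts are not independent observations.

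The number of members called depended on the test. The likelihood ratio test, the kind of test the study used, called 6 members (psbC, petD or rpl22 ATCG00810, clpP, ATCG00030, rps3 and atpI), beside 1.67% of all genes called lower by it. The bias-adjusted form of the quasi-likelihood fit called 4 (psbC, rps3, ATCG00810 and psaB), beside 1.02%, and DESeq2 called 23, beside 3.38%. Without the replicate number as a block, the quasi-likelihood test called 1, ATCG00030, beside 0.538%, and the likelihood ratio test called 4, beside 1.16%. All of these calls were lower in epidermis.

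**Figure D3:**
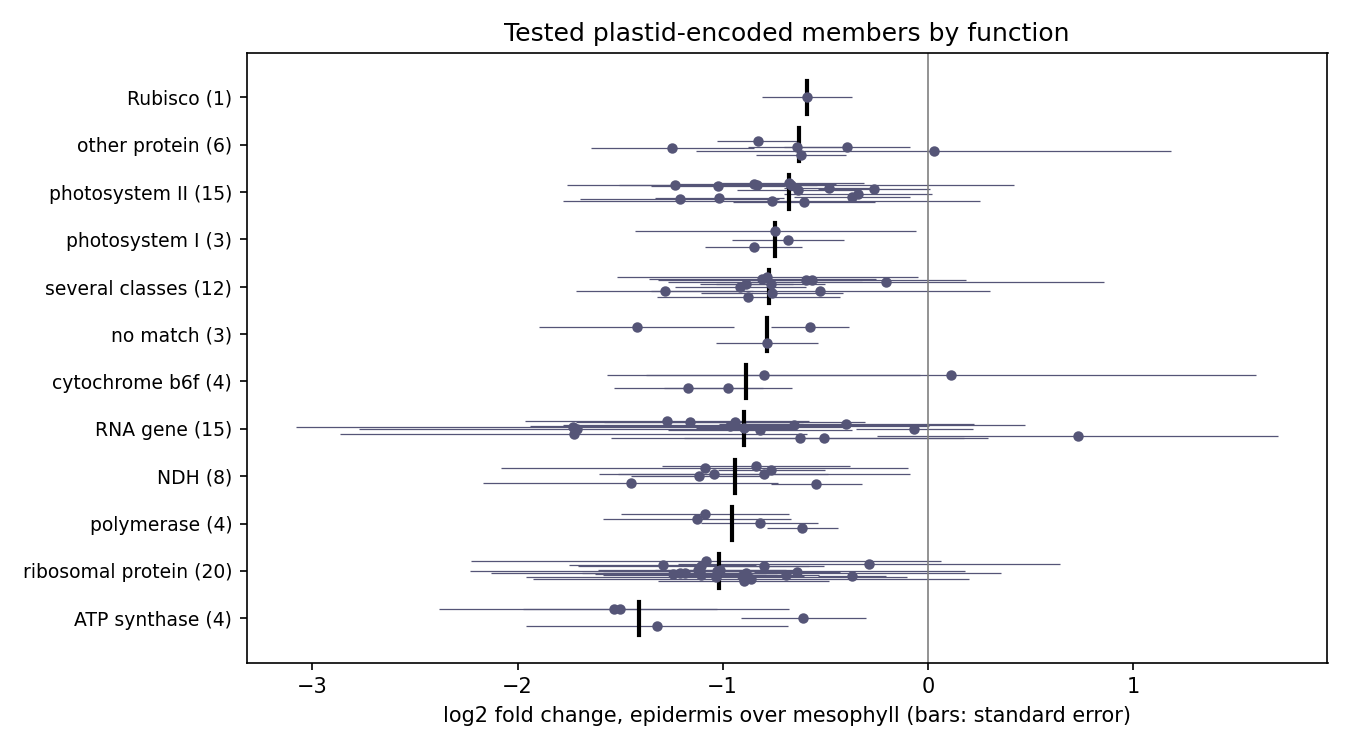
Log2 fold change of epidermis over mesophyll for the 95 tested members, 1 point per gene with a standard error derived from the F statistic. Genes are grouped by function with the number of genes in brackets and the class median as a black bar. All class medians are below 0, and 3 points lie above 0.

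The photosynthetic complexes had estimates almost wholly on the same side. In photosystem II, all 15 members had negative estimates, with a median of -0.68. The gene closest to the threshold was psbC, which encodes the inner antenna protein CP43. It stood at 33.0, 91.6, 103 and 80.5 CPM in epidermis and 154, 156, 183 and 178 CPM in mesophyll. All epidermis values were below all mesophyll values, and the log2 fold change was -1.23 with SE 0.27 and adjusted p = 0.0857 (edgeR). Without epidermis replicate 1 and with no block it was -0.87, with adjusted p = 0.0365, the only member called there, beside 0.709% of all genes called lower in that fit. The other members of the complex ranged up to -0.26 for psbJ.

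In photosystem I, psaB stood at 397, 802, 1242 and 1123 CPM in epidermis and 1342, 1357, 1512 and 1729 CPM in mesophyll, without overlap (log2 fold change -0.85 with SE 0.24, adjusted p = 0.170 in edgeR). Its partner psaA was at -0.68 and the small subunit psaJ at -0.74. For the cytochrome b6f complex, petA, which encodes cytochrome f, stood at 17.5, 78.5, 84.6 and 143 CPM in epidermis and 107, 165, 146 and 175 CPM in mesophyll. The ranges overlapped through epidermis replicate 4, and the log2 fold change was -1.17 with SE 0.36 (adjusted p = 0.224 in edgeR). The small subunit petN was at 0.11 with SE 1.49, from fewer than 2 CPM in every library.

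The 4 ATP synthase members showed the lowest class median, -1.41. The beta subunit gene atpB stood at 19.6, 657, 928 and 1018 CPM in epidermis and 1248, 1151, 1291 and 1518 CPM in mesophyll. One epidermis library was far below the other 3, which were in turn below mesophyll. The log2 fold change was -1.53 with SE 0.85 (adjusted p = 0.576 in edgeR), and -0.58 without epidermis replicate 1 and with no block. For atpE the values were 50.1, 671, 842 and 1006 CPM against 1096, 1081, 1158 and 1381 CPM, the same pattern, with a log2 fold change of -1.32 and SE 0.64 (adjusted p = 0.496 in edgeR). Without that library and with no block the class median was -0.53, beside -0.50 over all members in that fit.

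The 8 NDH members, subunits of the complex that feeds electrons from ferredoxin back to the plastoquinone pool, had a median of -0.94. The most abundant, ndhF, stood at 63.0, 55.6, 103 and 98.8 CPM in epidermis and 116, 107, 112 and 115 CPM in mesophyll. The epidermis replicates fell into a lower and a higher pair, all below mesophyll (log2 fold change -0.54 with SE 0.22, adjusted p = 0.390 in edgeR). The Rubisco large subunit rbcL, which carries the catalytic site of carbon fixation, stood at 55.8, 91.3, 129 and 132 CPM against 129, 135, 142 and 179 CPM. Epidermis and mesophyll met at 129 to 132 CPM, and the log2 fold change was -0.59 with SE 0.22 (adjusted p = 0.323 in edgeR).

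Genes for gene expression in the plastid showed the same side. All 20 tested ribosomal protein members had negative estimates, with a median of -1.02. In 13 of them the ranges did not overlap, beside 43 of all 95 tested members and 4.51% of all genes tested, and the difference from other classes was not tested. The 20 include both inverted repeat copies of rpl2, of rpl23 and of the 3' part of rps12, so they are not 20 different genes. The counts of these copies are what escaped the filter on multiple matches. The most abundant was rps3, at 438, 470, 668 and 666 CPM in epidermis and 903, 820, 961 and 877 CPM in mesophyll. Its epidermis values all lay below mesophyll, with a log2 fold change of -0.69, SE 0.16 and adjusted p = 0.102 (edgeR). In contrast rpl32 stood at 388, 279, 301 and 459 CPM against 426, 458, 418 and 511 CPM. Here the tissues overlapped, and the log2 fold change was -0.37 with SE 0.16 (adjusted p = 0.440 in edgeR).

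All 4 polymerase genes had negative estimates, with a median of -0.95. The alpha subunit gene rpoA stood at 259, 417, 490 and 446 CPM in epidermis and 556, 529, 649 and 675 CPM in mesophyll, with no overlap. Its log2 fold change was -0.61 with SE 0.17 (adjusted p = 0.182 in edgeR). For rpoC2 the values were 76.7, 293, 500 and 437 CPM against 540, 655, 644 and 485 CPM. Epidermis replicate 3 reached above the lowest mesophyll library, and the log2 fold change was -1.09 with SE 0.41 (adjusted p = 0.330 in edgeR).

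Among other protein genes, clpP, the proteolytic subunit of the Clp protease, stood at 51.9, 74.7, 87.7 and 89.5 CPM in epidermis and 125, 126, 146 and 132 CPM in mesophyll. The tissues were apart, and the log2 fold change was -0.83 with SE 0.20 and adjusted p = 0.118 (edgeR). The full-length ycf1 stood at 824, 1913, 1982 and 2215 CPM against 2316, 2441, 2656 and 2600 CPM, also apart (log2 fold change -0.62 with SE 0.22, adjusted p = 0.291 in edgeR). A shorter ycf1 model at the edge of the inverted repeat, ATCG01000, held 424 pairs in all and was at 0.03 with SE 1.16. Of the members named by length only in part, ATCG00810 (petD or rpl22 by length, rpl22 by order) stood at 107, 142, 232 and 284 CPM against 296, 329, 340 and 351 CPM, without overlap. Its log2 fold change was -0.89 with SE 0.23 and adjusted p = 0.137 (edgeR). The unmatched ATCG00040 stood at 253, 467, 741 and 777 CPM against 835, 837, 974 and 892 CPM, again apart (log2 fold change -0.78 with SE 0.25, adjusted p = 0.238 in edgeR).

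RNA genes were all of transfer RNA length. Models of ribosomal RNA held no pair. The authors removed ribosomal reads, and they also removed pairs with an equally good second match, as reads of these inverted repeat genes have, and the parts of these steps cannot be told apart. Of the 21 members 15 were tested, with a median of -0.90. ATCG00030 stood at 44.6, 43.4, 42.5 and 54.4 CPM in epidermis and 70.4, 108, 94.1 and 75.5 CPM in mesophyll. Its 4 epidermis values were close together and all below mesophyll, and the log2 fold change was -0.90 with SE 0.23 (adjusted p = 0.148 in edgeR). The most extreme estimates over all members were in this class, at low counts: ATCG00230 and ATCG00260 at -1.73 and trnS (ATCG00370) at -1.71, with SE of 1.06 to 1.35. At the other end ATCG00410 stood at 4.53, 5.07, 14.9 and 9.06 CPM in epidermis and 5.49, 8.27, 6.98 and 1.06 CPM in mesophyll. The ranges overlapped between 4.53 and 8.27 CPM, with epidermis replicates 3 and 4 above all mesophyll libraries and mesophyll replicate 4 below all epidermis libraries, and the log2 fold change was 0.73 with SE 0.98 (adjusted p = 0.863 in edgeR).

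Epidermis replicate 1 stood apart from the other epidermis libraries for most members, and unevenly so. Of the 95 tested members, 80 had their lowest value of all libraries in it. Set against the mean of the other 3 epidermis libraries, the 70 members with a mean of at least 10 CPM had a median log2 ratio of -1.32 in this library, with an SD over members of 1.10. In the other 7 libraries the median lay between -0.14 and 0.51 and the SD between 0.21 and 0.52. With no block the median log2 fold change over the tested members was -0.73 with all libraries and -0.50 without epidermis replicate 1, where 91 of 95 estimates were negative.

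**Figure D4:**
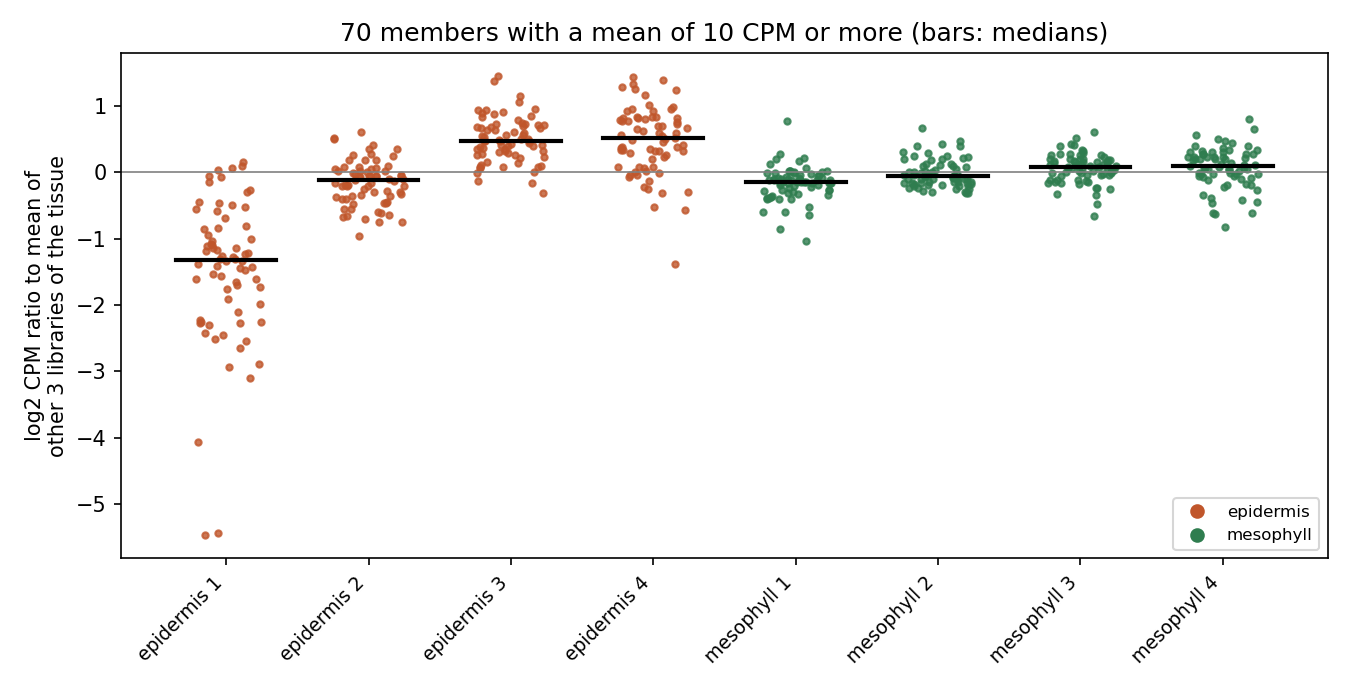
Log2 ratio of a member's CPM in 1 library to its mean in the other 3 libraries of the same tissue, for the 70 members with a mean of at least 10 CPM, with the median of each library as a black bar. Epidermis replicate 1 has its median at -1.32 and members as low as -5.47, while the medians of the other 7 libraries lie between -0.14 and 0.51.

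The genes most reduced in epidermis replicate 1 came from several classes. The log2 ratio was -5.47 for atpB, -5.44 for ndhH, -4.07 for atpE, -3.10 for ndhA, -2.93 for rps2 and -2.89 for rpl16. For atpB this was 19.6 CPM against 867 ± 188 CPM (SD, n = 3), and for ndhH 0.441 CPM against 19.2 ± 5.90 CPM. By contrast rpl32 was at 0.16, ndhJ at 0.10, ATCG00390 at 0.06, ATCG01050 at 0.04 and the psbA or psbD models at -0.06 and -0.14. Both ndhH and ndhJ encode subunits of the same complex, so subunits of 1 complex lay at both ends of the range.

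Position in a gene cluster was looked at next. In the run ndhH, ndhA, ndhI and ndhG, in the order of transcription, the log2 ratio in epidermis replicate 1 was -5.44, -3.10, -1.11 and -0.38. In psbE, psbF, psbL and psbJ it went from -1.60 to -0.30. In both runs each gene was less reduced than the gene before it. The run rpoB, rpoC1, rpoC2 and rps2 went the other way, from -0.94 to -2.93. Over all 24 neighbouring pairs on 1 strand with both genes at 10 CPM or more, the downstream gene was the less reduced one in 14, so no common order held, and the runs were picked after their values were seen.

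**Figure D5:**
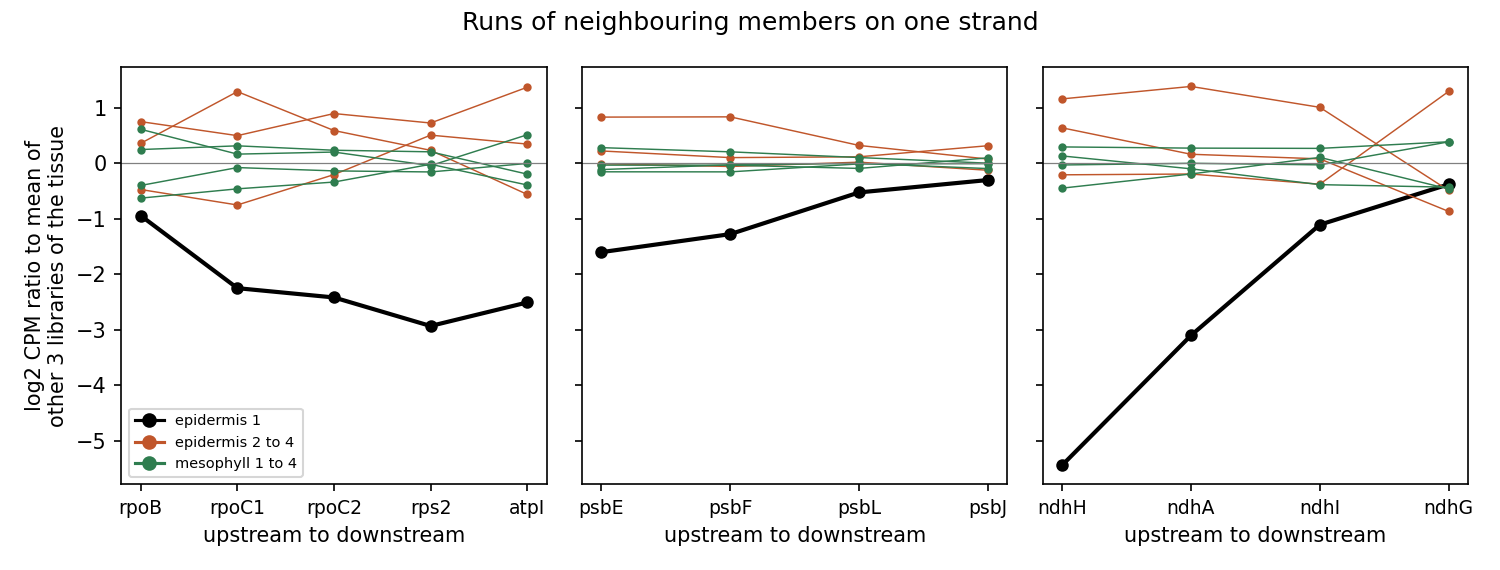
Log2 ratio to the mean of the other 3 libraries of the tissue for 3 runs of neighbouring genes on 1 strand, left to right in the order of transcription, with 1 line per library and epidermis replicate 1 in black. In epidermis replicate 1 the ndhH run rises from -5.44 to -0.38 while the rpoB run falls from -0.94 at rpoB to -2.93 at rps2 and ends at -2.51 at atpI.

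The make-up of the plastid RNA was otherwise much alike in both tissues. ATP synthase genes took 2.75% of plastid pairs in epidermis replicate 1, 15.9 to 17.5% in the other epidermis libraries and 16.3 to 19.1% in mesophyll. Ribosomal protein genes took 25.9% in epidermis replicate 1, 17.7 to 18.5% in the other epidermis libraries and 18.2 to 19.1% in mesophyll. Photosystem I genes took 9.47 to 11.2% in epidermis replicates 2 to 4 and 9.77 to 11.2% in mesophyll, and photosystem II genes 5.22 to 5.89% and 5.29 to 5.91%. Other protein genes, mostly ycf1, took 19.4 to 24.3% in epidermis replicates 2 to 4 and 18.9 to 19.3% in mesophyll, the only class whose ranges then did not overlap.

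Nuclear genes for the partner proteins were read in the same fit. Over the 47 nuclear genes for subunits of photosystem I, photosystem II, cytochrome b6f, ATP synthase, NDH and Rubisco, 45 were tested, 43 had negative estimates and the median was -0.44. Of these, 2 were called lower and 0 higher, beside 0.101% of all genes called lower. They were the Rubisco small subunit genes RBCS1B (28.5 ± 13.9 against 101 ± 18.0 CPM, SD, n = 4 each; log2 fold change -1.97 with SE 0.33, adjusted p = 0.0318 in edgeR) and RBCS3B (85.0 ± 40.2 against 225 ± 41.7 CPM; -1.52 with SE 0.25, adjusted p = 0.0305 in edgeR). These calls were lost in most fits with fewer libraries. Each gene was called in 3 of 12 fits that left out a replicate number or 1 library. The adjusted p (edgeR) was 0.0138 to 0.131 for RBCS1B and 0.0333 to 0.154 for RBCS3B. The log2 fold change stayed between -2.13 and -1.55 for RBCS1B and between -1.74 and -1.16 for RBCS3B. Fits without 1 library also had no block. Dependence on a given library and the smaller number of libraries cannot be told apart here. Both calls were lost without replicate number 1, 2 or 3, without epidermis replicate 2 and without each of the mesophyll libraries, RBCS1B also without epidermis replicate 1 and RBCS3B without epidermis replicate 3. Over the whole list the number called lower was 7 without epidermis replicate 1 and with no block, beside 0.709% of all genes called lower in that fit. It was 0 without replicate number 1, beside 0.0376% of all genes. RBCS genes are near-identical to each other, so pairs shared between them were lost in counting. All 33 nuclear genes for plastid ribosomal proteins had negative estimates, with a median of -0.52. None was called with edgeR's quasi-likelihood test, and 33 were lower at an unadjusted p under 0.05, beside 5.43% of all genes tested. With other tests the number called lower was 6 by the likelihood ratio test, 5 by the bias-adjusted fit, 23 by DESeq2 and 8 without the block. Over all genes the shares called lower were 1.67, 1.02, 3.38 and 0.538% in the same order. Without epidermis replicate 1 and with no block 12 were called lower, beside 0.709%. For plastid transcription, 0 of 8 sigma factor and polymerase genes and 0 of 13 polymerase-associated protein genes were called, with medians of -0.27 and -0.32. The 4 nuclear acetyl-CoA carboxylase subunits, partners of accD, and the 8 Clp core genes, partners of clpP, had medians of -0.18 and -0.21, with none called.

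The nuclear partners differed from the plastid members in epidermis replicate 1. Nuclear photosystem II genes summed to 11425 CPM in that library and to 9544, 8408 and 7236 CPM in epidermis replicates 2 to 4, against 11559 to 12365 CPM in mesophyll. Nuclear photosystem I genes summed to 8758, 7459, 6418 and 5847 CPM, against 8984 to 9551 CPM. These sums are scaled by library totals alone, unlike the CPM of members. The TMM factor, by which member CPM are also divided, was 0.929 in epidermis replicate 1 and 0.985 to 1.04 in mesophyll. On that scale the sums of epidermis replicate 1 rise relative to mesophyll, so its place below mesophyll depends on the scaling. For both lists the library with the lowest plastid share was the epidermis library with the highest nuclear sum, and the list medians were -0.40 for photosystem I and -0.39 for photosystem II in the fit with the block. With no block they were -0.36 and -0.38 with all libraries, and -0.53 and -0.50 without that library.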

How the data were processed

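RNA was sequenced from laser-microdissected epidermis and mesophyll (4 libraries each). Per the study's methods, the authors trimmed the reads, took out ribosomal sequences (sortMeRNA) and used Bowtie2 with local alignment on the TAIR10 transcript set, counting a pair where both mates fell on 1 gene, without strand. The submitters' processing notes also name TopHat2. The deposited values are raw counts of pairs per model, with multiply matching reads removed. The files also hold reads counted singly, used only in an alternative. Reads carry no molecular identifiers, so they are not independent molecules.

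Genes reaching 1 CPM in 4 or more of the 8 libraries were scaled by TMM and fitted in edgeR 4.0.16 (R 4.3.3) with tissue and the replicate number (a block that stands in for the harvest date the study modelled). The quasi-likelihood F test (legacy form) was used with Benjamini-Hochberg adjustment over all genes and calls at 0.05 or less. The SE given for a log2 fold change is its absolute value divided by the square root of the F statistic. It is thus derived from the test and approximate, above all for estimates near 0. CPM in the text are TMM-scaled, except for the summed levels of gene lists, which are scaled by library totals alone. A value of 0 allows up to 3 pairs, which is 0.0818 to 0.108 CPM depending on the library, for counting error only. Differences measure the spread between libraries. DESeq2 1.42.0, a likelihood ratio test (the kind of test the study used in edgeR), other scalings, filters and leaving out replicates were alternatives. The fit was tested on simulated data.

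Members and gene lists were chosen with earlier results of these data known. Named genes were the called members, the 10 members with the highest CPM, the highest in each class, the 3 lowest and 3 highest log2 fold changes, the 3 smallest adjusted p not called, and the 2 models on each side of 10 pairs. Members named for their level per length, their place in a gene cluster, the inverted repeat or epidermis replicate 1 were chosen after their values were seen.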

Additional observations from a re-analysis of the deposited data

Results flagged for a closer look

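In 70 groups of 4 libraries tested for a sample far from the others (the gap to the nearest library as a ratio of the group's range, against Dixon's 95% limit), 5 were flagged, where chance flags about 1 in 20. The share of plastid pairs in ATP synthase genes was lowest in epidermis replicate 1, at 2.75% against 15.9 to 17.5% (ratio 0.891). The shares of RNA genes (2.89% against 1.59 to 1.62%, ratio 0.976) and of ribosomal protein genes (25.9% against 17.7 to 18.5%, ratio 0.893) were highest in the same library. The share of polymerase genes was highest in epidermis replicate 3, at 10.3% against 9.12 to 9.28% (ratio 0.856). The share of rbcL was highest in mesophyll replicate 4, at 1.10% against 0.896 to 0.919% (ratio 0.892). Shares within a library sum to a whole, so a low share of 1 class raises the others.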

How the results depend on the processing

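The median log2 fold change of the tested members was below 0 under all 22 alternatives, between -0.99 and -0.50. No member was called in the analysis reported. With other tests the count was 1 without the replicate block, 6 with the likelihood ratio test, 4 with the bias-adjusted quasi-likelihood fit, 23 with DESeq2 and 4 with the likelihood ratio test without the replicate block, the last chosen after seeing the data. It was 0 under other scalings, filters and reads counted singly. Leaving out a replicate number or a library gave 0 to 1 members called and medians of -0.99 to -0.50. The lone call there, psbC, came without epidermis replicate 1. The cause of these differences between tests was not tested. Deviations from the tissue means of libraries with the same number correlated across genes at 0.0102, -0.0019, 0.0702 and -0.0102, and 1 of 4 mesophyll libraries correlated best with its own number, so the numbers were not shown to pair the samples. The fit without the block moved the median to -0.73 and the calls over all genes from 171 to 361. The same alternatives were applied to the nuclear lists after seeing the data. Of the nuclear photosynthetic partners, 2 were called lower, 8 with DESeq2, 4 with the likelihood ratio test without the replicate block and 0 to 7 with a replicate number or library left out. Of the nuclear plastid ribosomal proteins, 0 were called lower, 8 without the replicate block, 6 with the likelihood ratio test, 9 with that test without the replicate block, 5 with the bias-adjusted fit, 23 with DESeq2 and 0 to 12 with a replicate number or library left out. Over all genes tested, the share called lower was 0.101% in the analysis reported and 0.538% without the replicate block. It was 1.67% with the likelihood ratio test, 1.16% with that test without the replicate block, 1.02% with the bias-adjusted fit and 3.38% with DESeq2. Without replicate number 1 it was 0.0376%, and without epidermis replicate 1 it was 0.709%.

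The difference in plastid share was -0.602 percentage points (epidermis minus mesophyll) and -0.677 to -0.465 when a replicate number was left out. It was -0.522 without the most abundant model and -0.401 without models that hold a run of at least 10 A or T. Estimates near 0 changed sign. For petN, at 0.11, they were -0.043 without the replicate block (-0.044 with the likelihood ratio test), -0.045 with the bias-adjusted fit and -0.53 to 0.68 with a replicate or library left out. For ycf1 (ATCG01000), at 0.03, they were -0.15 to 0.30. Class shares of plastid pairs (epidermis minus mesophyll, in percentage points) also changed sign. With a replicate number left out they ranged from -0.0638 to 0.256 for NDH, -0.0892 to 0.449 for RNA genes, -0.0100 to 0.894 for unmatched models, -0.674 to 2.07 for ribosomal protein, -0.284 to 0.423 for models of several classes, -0.658 to 0.229 for photosystem I and -0.533 to 0.101 for polymerase. The negative ends of the first 5 came without replicate 1. Without the most abundant model the difference was 0.0843 for photosystem I and 0.0841 for polymerase.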
